A study of Rattus norvegicus with 12 samples.

Results

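Myosin light chains and the kinases that phosphorylate them were followed in neonatal rat cardiomyocytes exposed to hypertrophic agonists and to the BET inhibitor JQ1. The 7 genes were taken by symbol from the 32883 genes of the deposited tables: the atrial chains Myl7 and Myl4, the ventricular chains Myl2 and Myl3, the smooth muscle and non-muscle chain Myl9, and the kinases Mylk and Mylk3. Cardiomyocytes (heart muscle cells) came from Sprague-Dawley rats aged 1 to 3 days, and the chamber they came from is not given in the labels. All groups had been kept with 10 µM AraC (cytosine arabinoside, which limits dividing cells), withdrawn before treatment. The cells were treated for 24 h, and total RNA depleted of ribosomal RNA was sequenced. There were 6 groups of 2 libraries each. ET-1 cells received endothelin-1 at 100 nM, PE cells the alpha-1 adrenergic agonist phenylephrine at 10 µM and vehicle cells acetic acid, in each case with DMSO. The ET-1 + JQ1, PE + JQ1 and vehicle + JQ1 cells received the same agents with JQ1 at 1 µM, which displaces BET proteins from acetylated chromatin, in place of DMSO alone. The study's title asks how activation of distinct G protein-coupled receptors engages the elongation factor P-TEFb in hypertrophy. Nothing in the labels shows whether the 2 libraries of a group came from different cultures, and p-values therefore cover only the spread between libraries, which may be technical.

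Each myosin heavy chain carries an essential and a regulatory light chain on its lever arm. In the heart the chambers use different genes: Myl7 (regulatory) and Myl4 (essential) mark the atria, and Myl2 (regulatory) and Myl3 (essential) mark the ventricles, while Myl4 is also made in the fetal ventricle and can return in diseased ventricle. Mylk3 encodes the cardiac light chain kinase, which phosphorylates Myl2, and Mylk the calmodulin-dependent kinase of smooth muscle and non-muscle cells, which phosphorylates Myl9. A phosphatase built on Ppp1cb and a targeting subunit removes the phosphate, and RhoA and ROCK hold that phosphatase back in smooth muscle.

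On the rn6 build of the files, Myl2 lies at chr12:39951987-39958239 on the minus strand and Myl3 at chr8:119030875-119036996 on the plus strand. Myl4 lies at chr10:92628356-92638100 (plus), Myl7 at chr14:86143862-86147553 (minus) and Myl9 at chr3:152857592-152863960 (plus). The kinase genes Mylk and Mylk3 lie at chr11:69013050-69223158 (minus) and chr19:27404712-27441536 (plus). Myl7 and Mylk were listed with 2 transcripts each and the other members with 1. Of the Mylk transcripts, ENSRNOT00000067060 was listed at 0 in all 12 libraries, so the gene's level was that of ENSRNOT00000085618.

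Promoter sequences were available for 5 of the 7 members from RefSeq (assembly GRCr8, a later build than that of the files), each spanning 250 bases before to 50 bases after the gene's start. Shown here are the promoters of Myl3, the member called with JQ1 in all 3 treatments, of Mylk3, which moved the other way, and of Myl4, the member called with both agonists in the fit with the replicate block. They lie at chr8:119616844-119617143, chr19:37881745-37882044 and chr10:89975900-89976199, all on the plus strand. Capitals mark matches on either strand to a CArG box (the SRF site), a MEF2 site, the M-CAT element CATTCC (bound by TEAD factors), TATAAA, the Nkx2-5 site TNAAGTG and the GATA site GATAA.
Myl3: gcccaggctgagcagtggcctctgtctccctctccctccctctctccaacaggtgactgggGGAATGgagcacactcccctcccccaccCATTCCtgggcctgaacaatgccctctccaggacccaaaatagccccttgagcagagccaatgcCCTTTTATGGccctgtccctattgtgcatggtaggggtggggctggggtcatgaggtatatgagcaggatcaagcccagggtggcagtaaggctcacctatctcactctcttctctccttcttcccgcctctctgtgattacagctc
Mylk3: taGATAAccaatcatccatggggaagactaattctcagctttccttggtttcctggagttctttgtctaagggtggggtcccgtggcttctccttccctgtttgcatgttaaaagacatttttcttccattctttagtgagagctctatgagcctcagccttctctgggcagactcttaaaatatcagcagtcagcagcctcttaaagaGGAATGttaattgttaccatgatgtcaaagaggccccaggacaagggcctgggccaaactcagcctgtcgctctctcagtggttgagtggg
Myl4: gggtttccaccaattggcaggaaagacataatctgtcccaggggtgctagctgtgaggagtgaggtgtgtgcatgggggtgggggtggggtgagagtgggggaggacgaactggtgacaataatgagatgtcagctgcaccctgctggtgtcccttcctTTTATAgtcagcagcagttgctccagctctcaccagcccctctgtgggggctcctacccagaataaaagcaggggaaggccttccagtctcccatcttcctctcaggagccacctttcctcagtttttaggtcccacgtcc
The Myl3 window held 1 CArG box, CCTTTTATGG, and 2 M-CAT elements. The Mylk3 window held 1 M-CAT element and 1 GATA site, and the Myl4 window held 1 TATAAA, on the minus strand. Of the other promoters, that of Mylk held 1 M-CAT element and that of Myl7 none of the 6 motifs. Among 33469 rat promoters of the same length, 1.64% held a CArG box, 3.29% a MEF2 site, 14.2% an M-CAT element, 14.2% TATAAA, 11.5% the Nkx2-5 site and 26.5% the GATA site. A match describes the letters in the window and not a bound site.

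Levels are FPKM (fragments scaled to transcript length and library total), rescaled so that the typical gene has the same level in each library. They are per annotated length, so comparisons between genes depend on the annotated transcripts. The longest of these had 496 nt for Myl2 and 1479 nt for Myl7. Coverage summed to 2.341 to 2.965 gigabases per library, and the 7 members together took 0.363 to 0.879% of it. Cardiomyocyte markers were abundant in every library: the 7 of 8 markers listed summed to 13510 to 19800 FPKM with JQ1 and 8659 to 11760 FPKM with DMSO. Fibroblast markers were also present, at 506 to 1334 FPKM over 8 genes in replicate 1 and 109 to 324 FPKM in replicate 2. Endothelial and macrophage markers stayed at or under 3.93 and 7.19 FPKM in sum. Of the marker genes, Adgre1, Cdh5 and Emcn, which define macrophages and endothelium, were at 0 in 3, 2 and 5 libraries. Markers of smooth muscle, a cell type of Mylk, were detected as well: their list summed to 397 to 871 FPKM. Levels within it were uneven, with Acta2 at 40.4 to 127 FPKM and Lmod1 at 0.67 to 4.90 FPKM. How many smooth muscle cells were present was not tested.

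Ordered by their mean over the 12 libraries, the members ran over 3 orders of magnitude of level. The ventricular chains led, Myl2 at 3315 FPKM (rank 27 of 13793 tested genes) and Myl3 at 1999 FPKM (rank 34). Myl9, the regulatory chain of smooth muscle and non-muscle myosin, averaged 810.5 FPKM and the atrial chains averaged 734 FPKM for Myl4 and 352 FPKM for Myl7. Mylk3, the cardiac kinase, stood at 291 FPKM, against 2.79 FPKM for Mylk (rank 11003).

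Replicates differed in the same way in nearly every group. Myl2, Myl3, Myl4, Myl7 and Myl9 were higher in replicate 2 in 6 of 6 groups, Myl4 by a log2 difference of 0.84 to 1.22 and Myl7 by 0.78 to 1.29. Mylk was lower in replicate 2 in 6 of 6 groups (log2 difference -1.15 to -0.41), as were the summed fibroblast markers. The part of fibroblast content in the member levels was not tested. In bulk RNA, fewer cells of a type and less RNA per cell cannot be told apart. Because same-numbered libraries deviated together (correlation of deviations 0.16 to 0.67 over 15 pairs of groups), a fit with the replicate number as a block is given wherever it changes a call on a member, beside the main fit without it, and for the other gene lists as counts.

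**Figure D1:**
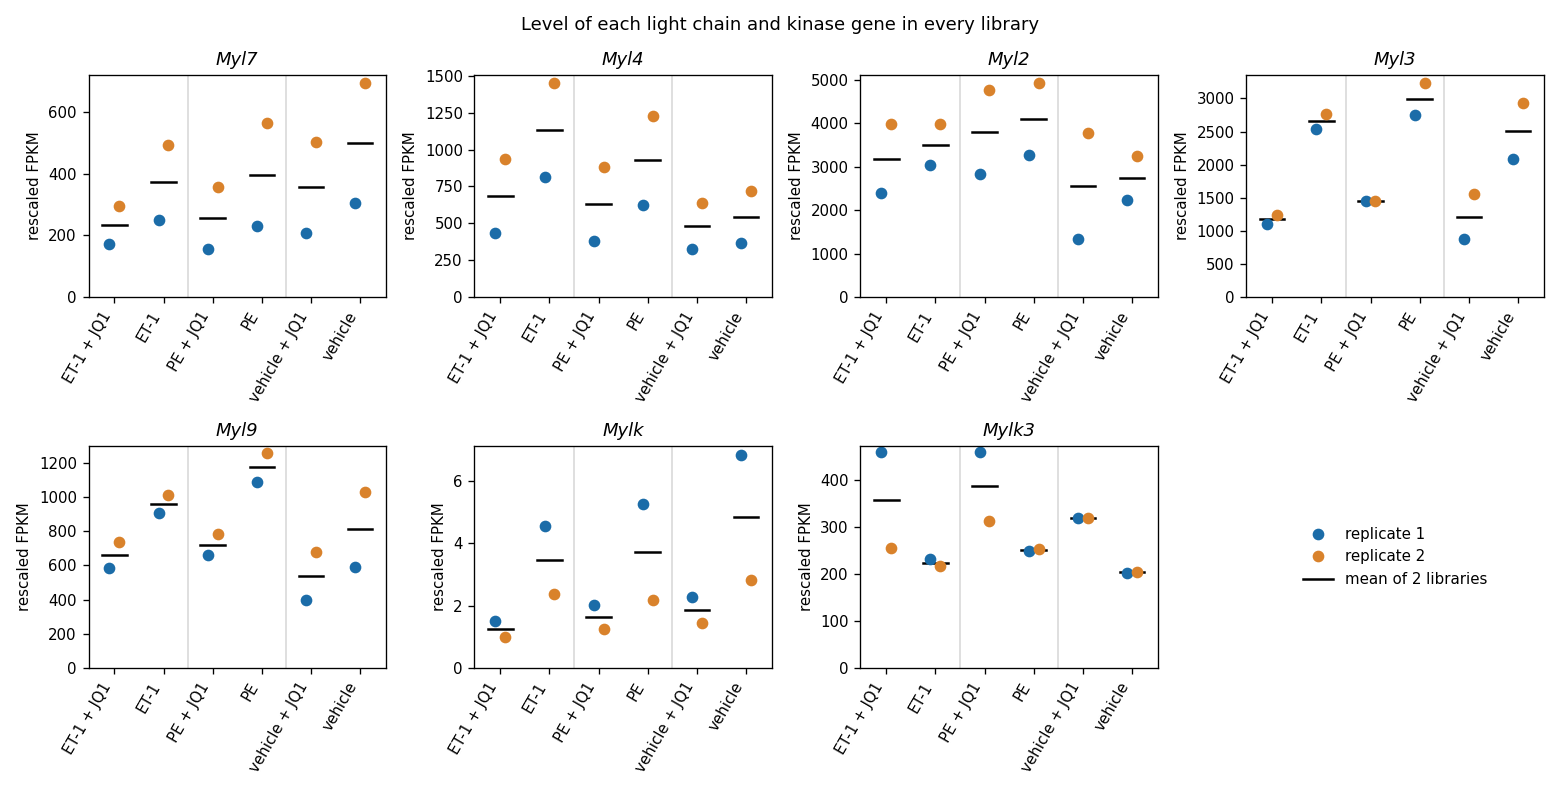
Rescaled FPKM of each member in all 12 libraries, on linear axes from 0. Points are libraries (blue replicate 1, orange replicate 2), bars the mean of 2, and JQ1 groups stand left of their DMSO group. Myl3 lies at 876 to 1559 FPKM in all 6 JQ1 libraries and at 2081 to 3238 FPKM in the 6 without. The share of all genes with such a split was not counted.

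Myl3, the ventricular essential chain, fell with JQ1 in all 3 treatments, to 0.443 times its DMSO level in ET-1, 0.485 times in PE and 0.474 times in vehicle. The ET-1 + JQ1 libraries had 1108 and 1243 FPKM of Myl3, against 2542 and 2763 FPKM in the ET-1 libraries. The PE + JQ1 libraries had 1449 and 1449 FPKM, against 2753 and 3238 FPKM in the PE libraries, and the vehicle + JQ1 libraries 876 and 1559 FPKM, against 2081 and 2924 FPKM in the vehicle libraries. Both JQ1 libraries were below both DMSO libraries each time, as for 32.3% of all genes in ET-1, 33.1% in PE and 33.6% in vehicle. With limma, the log2 difference was -1.18 ± 0.28 (SE; adjusted p = 0.012) in ET-1, -1.04 ± 0.28 (adjusted p = 0.020) in PE and -1.08 ± 0.28 (adjusted p = 0.020) in vehicle. Within replicates it was -1.20 and -1.15 in ET-1, -0.93 and -1.16 in PE, and -1.25 and -0.91 in vehicle. The call rested on both replicates: it was lost without ET-1 + JQ1 replicate 1 (adjusted p = 0.054) or ET-1 replicate 2 (0.063), without vehicle + JQ1 replicate 1 (0.10) or vehicle replicate 2 (0.12), and without any 1 of the 4 PE and PE + JQ1 libraries (0.053 to 0.10), with the same direction each time. Fitting the compared libraries alone ended the call in vehicle (adjusted p = 0.11). In the fit with the replicate block, Myl3 was called in all 3 treatments also without any 1 of the libraries compared. The JQ1 effect on Myl3 differed between agonist and vehicle by -0.10 ± 0.39 for ET-1 and 0.03 ± 0.39 for PE on the log2 scale, which was not called in either fit.

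Myl3 was the 1 of 7 members called in each treatment, against 37.5% of all 13793 genes in ET-1, 36.5% in PE and 32% in vehicle. With the replicate block 6 members were called in ET-1, 6 in PE and 5 in vehicle, against 56.9%, 56.4% and 52.8% of all genes. JQ1 changed a large share of the transcriptome, and these counts are to be read against it. The median log2 difference over the 7 members was -0.65 in ET-1, -0.61 in PE and -0.50 in vehicle, against 0.03, 0.01 and 0.01 over all genes tested.

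Myl2, the ventricular regulatory chain that pairs with Myl3 on the same myosin, was not called with JQ1 in either fit. It had 2393 and 3979 FPKM in ET-1 + JQ1, against 3036 and 3981 FPKM in ET-1, and 1331 and 3774 FPKM in vehicle + JQ1, against 2227 and 3248 FPKM in vehicle. The groups overlapped in all 3 treatments, and the log2 differences of -0.17 ± 0.52 (ET-1), -0.13 ± 0.52 (PE) and -0.26 ± 0.52 (vehicle) had 95% intervals of -1.38 to 1.03, -1.34 to 1.07 and -1.47 to 0.94. Those intervals, of the fit without the block, still hold a change as large as that of Myl3. With the block the SE of Myl2 was 0.24 in each treatment, so that fit leaves less room for such a change. The difference between the chains was not tested.

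Of the atrial chains, Myl7 (regulatory) was lower with JQ1 within both replicates of every treatment. It had 171 and 294 FPKM in ET-1 + JQ1, against 251 and 492 FPKM in ET-1. The PE + JQ1 libraries had 157 and 357 FPKM, against 230.4 and 563 FPKM in PE, and the vehicle + JQ1 libraries 208 and 503 FPKM, against 305 and 692 FPKM in vehicle. The groups overlapped, since replicate 2 was higher everywhere. The log2 differences of -0.65 ± 0.69, -0.60 ± 0.69 and -0.50 ± 0.69 were not called without the block (adjusted p = 0.50, 0.53 and 0.61). They were called with it (adjusted p = 0.0038, 0.0054 and 0.013). With the block, the call was lost in PE without PE replicate 2 (adjusted p = 0.053) and in vehicle without vehicle + JQ1 replicate 1 (0.097) or vehicle replicate 2 (0.070).

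Myl4, the atrial essential chain, had 436 and 934 FPKM in ET-1 + JQ1, against 812 and 1449.55 FPKM in ET-1. PE + JQ1 libraries had 380.3 and 885 FPKM, against 625 and 1230.0 FPKM in PE. In vehicle the libraries were close, 329.8 and 638 FPKM with JQ1 and 369.6 and 718 FPKM without. With the block Myl4 fell in ET-1 (log2 difference -0.77, adjusted p = 0.00069) and in PE (-0.60, adjusted p = 0.0024), also without any 1 of the libraries compared. It was not called in vehicle (-0.17, adjusted p = 0.23). Without the block it was called in none of the 3 (adjusted p = 0.37, 0.49 and 0.87). The difference between its JQ1 effect with and without agonist was -0.60 ± 0.88 for ET-1 and -0.43 ± 0.88 for PE and was not called in either fit, so the treatments were not shown to differ.

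Myl9, the smooth muscle and non-muscle regulatory chain, had 586 and 737 FPKM in ET-1 + JQ1, against 908 and 1013 FPKM in ET-1. It had 658 and 783 FPKM in PE + JQ1, against 1088 and 1257 FPKM in PE, and 399 and 676 FPKM in vehicle + JQ1, against 589 and 1032 FPKM in vehicle. JQ1 libraries lay below DMSO libraries in ET-1 and PE, as for 32.3% and 33.1% of all genes, and overlapped them in vehicle. The log2 differences of -0.54, -0.70 and -0.58 (each ± 0.32) were called with the block (adjusted p = 0.034, 0.012 and 0.027) and not without it (adjusted p = 0.21, 0.12 and 0.19). The calls with the block were lost without any 1 of 3 of the 4 libraries in ET-1 (all but ET-1 replicate 2), without PE replicate 1 or PE + JQ1 replicate 2 in PE, and without vehicle + JQ1 replicate 1 or vehicle replicate 2 in vehicle (adjusted p = 0.076 to 0.21 over these fits).

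The kinases moved in opposite directions. Mylk, the smooth muscle and non-muscle kinase, had 1.502 and 1.01 FPKM in ET-1 + JQ1, against 4.54 and 2.37 FPKM in ET-1. It had 2.03 and 1.26 FPKM in PE + JQ1, against 5.26 and 2.18 FPKM in PE, and 2.27 and 1.43 FPKM in vehicle + JQ1, against 6.83 and 2.81 FPKM in vehicle. Both JQ1 libraries were the lower in each treatment, as for 32.3%, 33.1% and 33.6% of all genes. With the block Mylk fell by 1.13 on the log2 scale in ET-1 (adjusted p = 0.0016), by 0.90 in PE (0.0050) and by 1.09 in vehicle (0.0022), and it did so without any 1 library compared. Without the block it was not called (adjusted p = 0.11, 0.20 and 0.13). Markers of other cell types fell with Mylk. With the block 56.9%, 56.4% and 52.8% of all genes were called in ET-1, PE and vehicle, in either direction. Of the fibroblast markers, 8 of 8 were lower with JQ1 in all 3 treatments with the block, and without it none was called. Their summed level was 109 to 659 FPKM over the JQ1 libraries, against 212 to 1334 FPKM over the DMSO libraries. Of 4 tested genes listed as mural (pericytes and vascular smooth muscle), 4 fell with the block in all 3 treatments and 2, Abcc9 and Cspg4, also without it. Whether these genes mark mural cells in this culture was not tested. Their list summed to 13.1 to 25.8 FPKM with JQ1, against 34.9 to 55.5 FPKM with DMSO. The 2 endothelial markers tested fell with the block in all 3 treatments, and of 3 macrophage markers 3 fell in ET-1, 2 in PE and 3 in vehicle, none of them called without it. Among these, Kdr, C1qa and Csf1r reached 1 FPKM, the level needed for testing, only in DMSO libraries. With JQ1 they had at most 0.26, 0.49 and 0.36 FPKM. The filter thus favoured a fall of these genes, and their calls are no support for one. The part of these cells in the Mylk result was not tested.

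Mylk3, the cardiac kinase, was the 1 member higher with JQ1. It had 459.5 and 256 FPKM in ET-1 + JQ1, against 231 and 217 FPKM in ET-1. It had 460.5 and 313 FPKM in PE + JQ1, against 249 and 253 FPKM in PE, and 319 and 319 FPKM in vehicle + JQ1, against 203 and 205 FPKM in vehicle. Both JQ1 libraries were above both DMSO libraries in each treatment, as for 34.5%, 34.8% and 34.9% of all genes. The log2 differences were 0.61, 0.60 and 0.64 (each ± 0.26). Summed cardiomyocyte markers were also higher with JQ1 (13510 to 19800 FPKM) than with DMSO (8659 to 11760 FPKM), but single markers moved both ways. Of 7 tested, Tnnt2 rose in all 3 treatments, and Tnni3 and Ryr2 fell in ET-1 and PE. With the block 2, 3 and 2 rose in ET-1, PE and vehicle, and 2 fell in each. The part of cell content in the Mylk3 result was not tested. With the block Mylk3 rose in all 3 (adjusted p = 0.042, 0.047 and 0.037), and without the block it was not called (adjusted p = 0.10, 0.11 and 0.097). Without 1 of the 4 libraries compared, the adjusted p with the block was above 0.05 in 3 of 4 fits in ET-1 (all but that without ET-1 + JQ1 replicate 2) and in 4 of 4 fits in PE and in vehicle. Without ET-1 + JQ1 replicate 2, the lower of that pair, Mylk3 was called even without the block (log2 difference 1.03, adjusted p = 0.012).

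**Figure D2:**
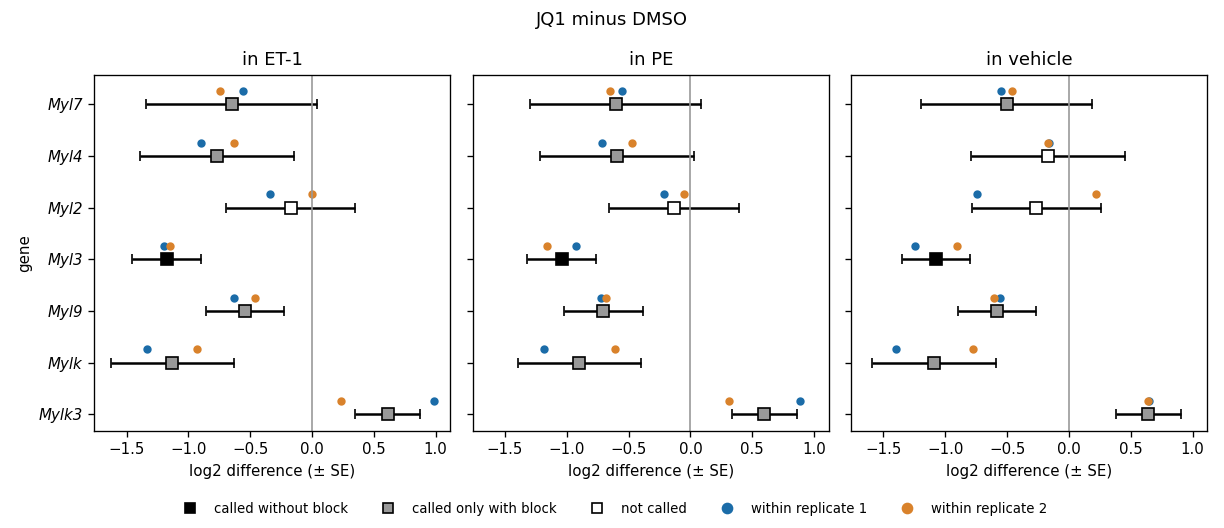
Log2 difference, JQ1 minus DMSO, for the 7 members in ET-1, PE and vehicle. Squares with bars are the limma estimate ± SE of the fit without block, filled black where called in it, grey where called only with the replicate block, and open where called in neither; small points are the differences within replicate 1 (blue) and replicate 2 (orange). Myl3 alone is black in all 3 panels, and Mylk3 is the only member right of 0.

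With the agonists, Myl4, the atrial essential chain, was the member with the largest difference. The ET-1 libraries had 812 and 1449.55 FPKM of Myl4 and the PE libraries 625 and 1230.0 FPKM, against 369.6 and 718 FPKM in the vehicle libraries. Both ET-1 libraries were above both vehicle libraries, as for 25.7% of all genes, whereas PE replicate 1 was below vehicle replicate 2. Mylk3 was likewise above vehicle with ET-1. With PE, Myl2, Myl9 and Mylk3 were above vehicle in both libraries, as were 27% of all genes. Within each replicate Myl4 was higher with the agonist, by 1.13 and 1.01 on the log2 scale with ET-1 and by 0.76 and 0.78 with PE. With the replicate block it rose with ET-1 (log2 difference 1.07, adjusted p = 0.0016) and with PE (0.77, adjusted p = 0.0036), and it was called without any 1 of the libraries compared. Without the block it was not called (SE 0.62 for both; adjusted p = 0.38 and 0.52). Both contrasts use the same vehicle libraries.

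No member was called with either agonist without the block, against 2.87% of all genes with ET-1 and 6.07% with PE; no member had an unadjusted p under 0.05, against 2800 and 3191 of all genes. With the block Myl4 was the 1 of 7 called with each, against 18.4% and 24% of all genes. Myl2 had log2 differences of 0.37 ± 0.52 with ET-1 and 0.58 ± 0.52 with PE, Myl3 0.10 ± 0.28 and 0.28 ± 0.28, and Myl9 0.30 ± 0.32 and 0.58 ± 0.32. Myl7, the other atrial chain, had a negative difference with both agonists (-0.38 ± 0.69 and -0.35 ± 0.69) and was lower within both replicates, and it was not called with the block either (adjusted p = 0.080 and 0.090). The Mylk differences were -0.37 and -0.33 (each ± 0.50), and fibroblast markers were lower with the agonists as well (with the block 7 of 8 fell with ET-1 and 4 of 8 with PE, none without it). Of 4 tested genes listed as mural, Cspg4 rose (by 1.06 with ET-1 and 1.16 with PE) and Abcc9 fell (by 0.86 and 0.73). Both were called in both fits, and no other gene of that list was called. The part of either list in the Mylk differences was not tested. Mylk3 differed by 0.14 ± 0.26 and 0.30 ± 0.26.

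PE and ET-1 were close for all 7 members: log2 differences of PE minus ET-1 ran from -0.31 (Myl4) to 0.29 (Myl9). Both PE libraries lay above both ET-1 libraries for Myl9 and Mylk3, as for 11.9% of all genes. No member was called, against 0.00725% of all genes, in the fit without the block or in that with it; without the block no member had an unadjusted p under 0.05, against 206 of all genes. With it Myl4 had an unadjusted limma p of 0.024 (adjusted p = 0.99). The intervals were wide, -1.74 to 1.13 for Myl4 and -0.44 to 1.01 for Myl9, and do not show that the agonists act alike.

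With JQ1 present, Myl4 was higher with ET-1 within both replicates, by 0.40 and 0.55 on the log2 scale. Its difference of 0.48 ± 0.62 was called with the block (adjusted p = 0.034) and not without it (adjusted p = 0.77). Myl7 was lower with ET-1 by 0.28 and 0.77 within replicates, with a difference of -0.53 ± 0.69, called with the block (adjusted p = 0.042) and not without it (0.77). These 2 of 7 stood against 11.6% of all genes, and in the fit without the block 0 of 7 against 1.36%, with no member and 2355 genes at an unadjusted p under 0.05. Leaving out any 1 of the 4 libraries lost the Myl4 call, and leaving out any but ET-1 + JQ1 replicate 1 lost the Myl7 call. With PE under JQ1 no member was called in either fit, against 0.718% of all genes without the block and 12.1% with it, and without the block no member and 2246 genes had an unadjusted p under 0.05. With the block Myl2, Myl4, Myl7 and Myl9 had an unadjusted p of 0.020, 0.016, 0.0093 and 0.034 and an adjusted p of 0.065 to 0.14. Myl4 differed by 0.34 ± 0.62 and Myl7 by -0.45 ± 0.69. For neither agonist did any member's response differ between JQ1 and DMSO past the threshold, in either fit, against 0% of genes without the block and 0.0363% (ET-1) and 0.0725% (PE) with it; without the block there was no member at an unadjusted p under 0.05, and 616 and 717 of all genes. With the block Myl4 had an unadjusted p of 0.0052 for ET-1 and 0.026 for PE (adjusted p = 0.24 and 0.32).

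**Figure D3:**
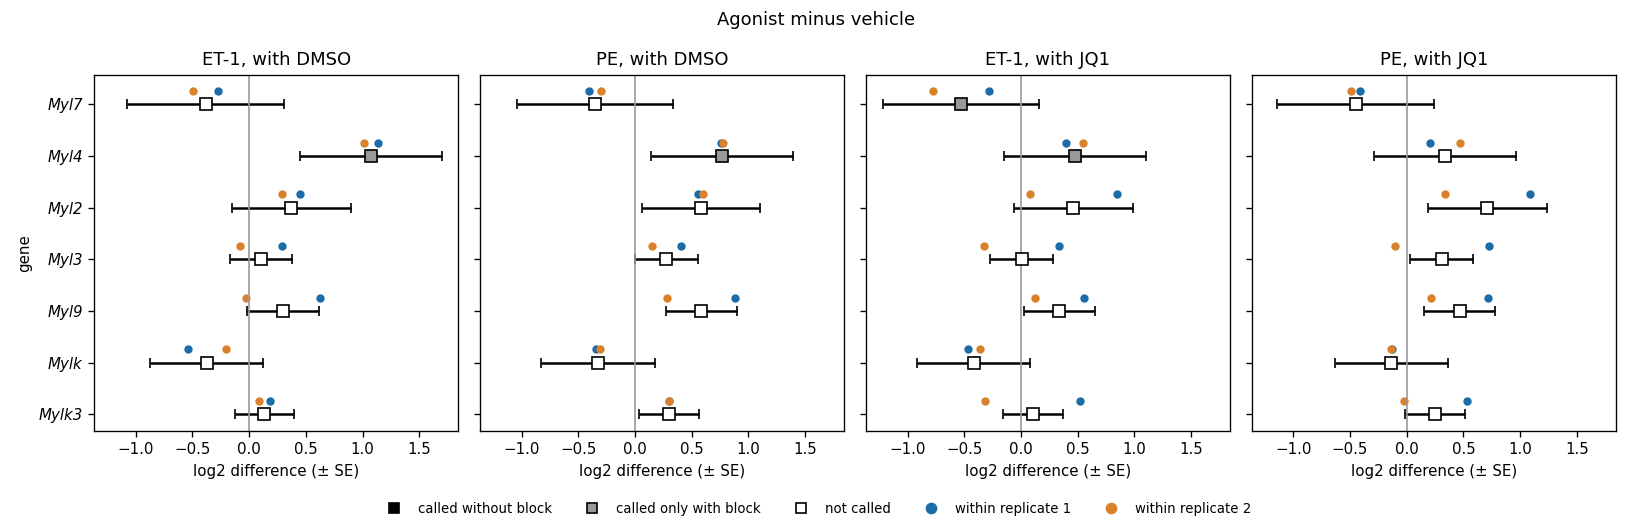
Log2 difference, agonist minus vehicle, for the 7 members, without JQ1 (left panels) and with JQ1 (right panels). Symbols are as in the plot of JQ1 differences: squares ± SE from the fit without block, grey where called only with the replicate block, small points within replicate. Myl4 is grey for ET-1 and PE with DMSO and for ET-1 with JQ1, and no square is black.

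The balance between chamber forms within a library does not depend on the scaling between libraries, and it is given as a description. Among the regulatory chains, Myl7 made up 7.65 and 11.0% of Myl7 plus Myl2 in ET-1 and 6.57 and 10.2% in PE, against 12.1 and 17.6% in vehicle. With JQ1 the share was 6.67 and 6.89% in ET-1 and 5.25 and 6.98% in PE, against 13.5 and 11.8% in vehicle. Both agonists thus had the lower atrial share, without overlap in either arm. Among the essential chains, Myl4 made up 24.2 and 34.4% of Myl4 plus Myl3 in ET-1 and 18.5 and 27.5% in PE, against 15.1 and 19.7% in vehicle. It made up 28.2 and 42.9% in ET-1 + JQ1, 20.8 and 37.9% in PE + JQ1 and 27.3 and 29.0% in vehicle + JQ1. Within replicates it was higher with ET-1 than with vehicle in both arms and with PE in the DMSO arm, and with PE under JQ1 it was lower in replicate 1 and higher in replicate 2; only ET-1 with DMSO did not overlap vehicle. The atrial essential share was also higher with JQ1 than with DMSO in the same replicate in all 3 treatments. Myl4 itself was lower with JQ1 each time (log2 differences within replicates -0.90 to -0.16), and Myl3 fell by more (-1.25 to -0.91). The Myl7 share was lower with JQ1 in both replicates of ET-1 and PE and in replicate 2 of vehicle, and higher in replicate 1 of vehicle. The log2 ratio of Mylk3 to Mylk was 8.26 and 7.99 in ET-1 + JQ1, against 5.67 and 6.52 in ET-1. It was 7.82 and 7.96 in PE + JQ1, against 5.57 and 6.86 in PE, and 7.13 and 7.80 in vehicle + JQ1, against 4.89 and 6.19 in vehicle.

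**Figure D4:**
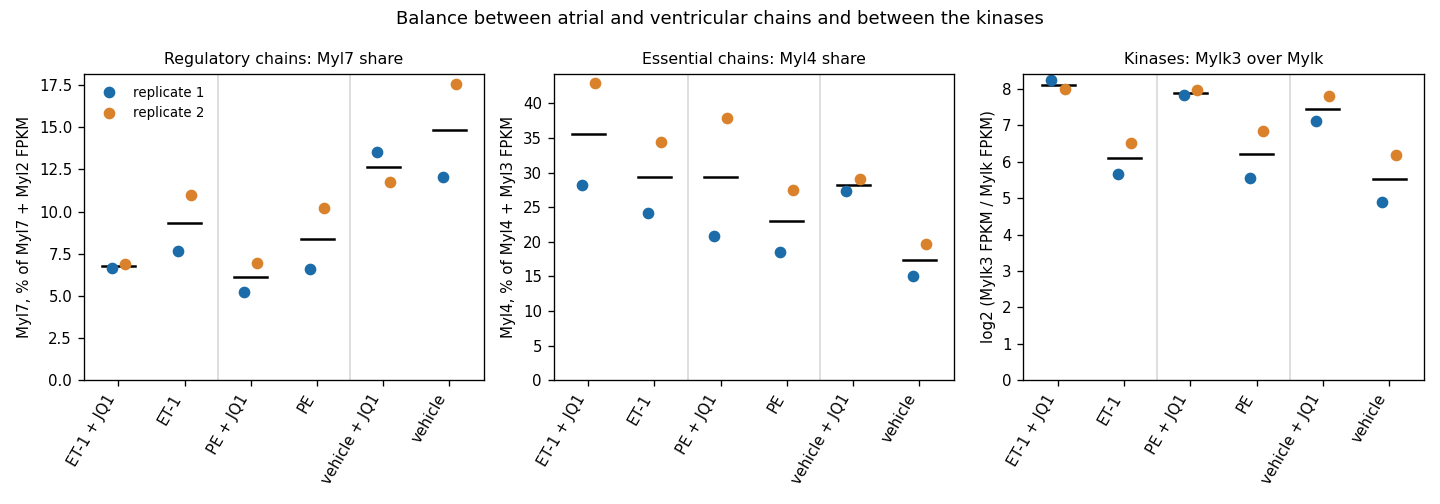
Left, Myl7 as a percentage of Myl7 plus Myl2; middle, Myl4 as a percentage of Myl4 plus Myl3; right, log2 ratio of Mylk3 to Mylk; all from rescaled FPKM, 1 point per library, bars the mean of 2. The kinase ratio of the 6 JQ1 libraries (7.13 to 8.26) lies above that of the 6 DMSO libraries (4.89 to 6.86). How many other ratios split in this way was not counted, and Mylk stood at only 1.01 to 2.27 FPKM with JQ1.

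Over the 6 groups the order of mean levels differed between members. For Myl3 it was PE, ET-1 and vehicle, with overlapping neighbours, then a gap to PE + JQ1, vehicle + JQ1 and ET-1 + JQ1, which overlapped again. Mylk3 ran PE + JQ1, ET-1 + JQ1 and vehicle + JQ1, overlapping, then PE, ET-1 and vehicle, each pair of neighbours from vehicle + JQ1 down without overlap. Mylk ran vehicle, PE, ET-1, vehicle + JQ1, PE + JQ1 and ET-1 + JQ1, with its only gap between ET-1 and vehicle + JQ1. Myl9 ran PE, ET-1, vehicle, PE + JQ1, ET-1 + JQ1 and vehicle + JQ1, with its only gap between PE and ET-1. Such gaps are common with 2 libraries a group. Both PE libraries lay above both ET-1 libraries for 11.9% of all genes, and both ET-1 libraries above both vehicle libraries for 25.7%. For gaps between a JQ1 group and the DMSO group of another treatment, the share of all genes was not counted. For Myl2, Myl4 and Myl7 every pair of neighbours overlapped: Myl2 was highest in PE (3279 and 4936 FPKM), Myl4 in ET-1 and Myl7 in vehicle, and the lowest were vehicle + JQ1 for Myl2 and Myl4 and ET-1 + JQ1 for Myl7.

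Genes of most similar pattern were named by Pearson's r of log2 levels over the 12 libraries, among 6949 genes averaging at least 10 FPKM; the 12 libraries come from only 6 groups that share the JQ1 split and the replicate shift, so r is a description. For Myl3 they were Spink8 (r = 0.98), Fsd2 (0.98) and Cavin3 (0.98). For Myl2 they were AABR07066516.1 (0.96), Abra (0.94) and Myo18b (0.93), for Myl4 Phb, Timm23 and AABR07064305.1 (all 0.96), and for Myl7 Rps4y2 (0.96) and Yap1 (0.95). Myl9 was closest to Tbrg4, Cep19 (both 0.95) and Hspb2 (0.94), Mylk to Cyp1b1, Mdk (both 0.97) and Lgals3bp (0.96), and Mylk3 to Add1 (0.96), Rab35 (0.94) and Reep5 (0.93).

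The other genes of light chain phosphorylation moved with JQ1 in both directions. Their counts, and those of the lists that follow, are to be read against the share of all genes called with JQ1. That share was 37.5% in ET-1, 36.5% in PE and 32% in vehicle without the block, and 56.9%, 56.4% and 52.8% with it. Of 5 tested kinases other than the members, 2 fell in ET-1, 3 in PE and 2 in vehicle, and Stk17b rose in vehicle (0.62 ± 0.13, adjusted p = 0.0079). Cit (citron kinase, which acts at the cleavage furrow) fell by 1.49, 1.18 and 0.73 on the log2 scale in ET-1, PE and vehicle, and Dapk3, which phosphorylates regulatory light chains without calcium, fell by 0.79, 0.84 and 0.53. Dapk2 fell in PE (log2 difference -1.49). With the block 3 kinases fell in ET-1, 3 in PE and 2 in vehicle, and Stk17b also rose in ET-1 (0.26). Of the 7 phosphatase genes, Ppp1r14b, an inhibitor of the phosphatase, fell and Ppp1r12c, a targeting subunit, rose in all 3 treatments. Ppp1r14b had 38.9 and 47.8 FPKM in ET-1 + JQ1, against 132 and 151 FPKM in ET-1, and 32.0 and 30.7 FPKM in vehicle + JQ1, against 85.1 and 86.8 FPKM in vehicle. Its log2 difference was -1.70 ± 0.13 in ET-1, -1.90 ± 0.13 in PE and -1.44 ± 0.13 in vehicle, while Ppp1r12c rose by 0.51, 0.59 and 0.71. The block added Ppp1r12a, a targeting subunit, among those that rose (by 0.36, 0.29 and 0.35) and Ppp1r14a, another inhibitor, among those that fell (by 0.52, 0.58 and 0.87) in all 3 treatments, and Ppp1r12b (-0.31) in PE. Of 8 tested calmodulin and RhoA-ROCK genes, 3 rose in ET-1, 3 in PE and 4 in vehicle (5, 4 and 6 with the block), and none fell in either fit. Arhgef11 and Arhgef12, exchange factors for RhoA, rose by 0.53 and 0.52 in ET-1 and by 0.55 and 0.55 in PE, and Rock1, a kinase that RhoA activates, rose by 0.44 in ET-1, 0.42 in PE and 0.39 in vehicle. Calm3 (0.44), which encodes calmodulin, and Arhgef11 (0.40) rose in vehicle.

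Of the 5 other light chains tested, Myl1, a chain of fast skeletal muscle present at no more than 3.77 FPKM and listed at 0 in 1 vehicle + JQ1 library, fell with JQ1 in all 3 treatments (log2 difference -1.47, -1.80 and -0.98, which for so low a gene depend on the added 0.5), and Myl6, Myl12a, Myl12b and Mylpf were not called. With the block Myl12b, a non-muscle regulatory chain, rose with JQ1 in ET-1 (0.24, adjusted p = 0.027) and vehicle (0.23, adjusted p = 0.031), and Myl6, a non-muscle essential chain, in vehicle (0.32, adjusted p = 0.033). With PE, Myl1 rose (1.40 ± 0.31, adjusted p = 0.041), at 1.97 and 3.77 FPKM in PE, against 0.573 and 0.917 FPKM in vehicle. With the block 4 of the 5 rose with each agonist. The block called 18.4% of all genes with ET-1 and 24% with PE, against 2.87% and 6.07% without it. Ppp1r14b rose with ET-1 (0.71, adjusted p = 0.035) and PE (0.68, adjusted p = 0.028), the 1 of 7 phosphatase genes called with either without the block; with it Ppp1r14a also fell with PE (by 0.40). With PE, Rhoa (0.42) and Stk17b (0.54) rose, as did Cnn1 of the smooth muscle list (1.84), while Smtn of that list fell with ET-1 (by 0.74) and PE (by 0.70). With the block 1 of that list rose and 2 fell with ET-1, and 1 rose and 3 fell with PE. Among the other kinases Dapk3 then rose and Dapk1 fell with both agonists (Dapk3 by 0.64 and 0.68, Dapk1 by 0.80 and 0.82), and 2 atrial markers rose and 2 fell with each. The heavy chains that the members bind, Myh6 and Myh7, were among the 6 heavy chain genes of which none was called in any comparison without the block. With the block 2 of the 6 fell with JQ1 in each treatment and none rose: Myh11, the smooth muscle heavy chain, in all 3 (by 1.14 in ET-1, 1.25 in PE and 1.33 in vehicle), Myh7b in ET-1 and PE (by 1.15 and 1.28) and Myh7, the main ventricular heavy chain of large mammals, in vehicle (by 0.43). Among the agonist contrasts the block called Myh10 (0.22) with ET-1, Myh11 (-0.37) with PE, Myh7 (0.72) and Myh7b (-1.36) with ET-1 under JQ1, and Myh7b (-1.53) with PE under JQ1.

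**Figure D5:**
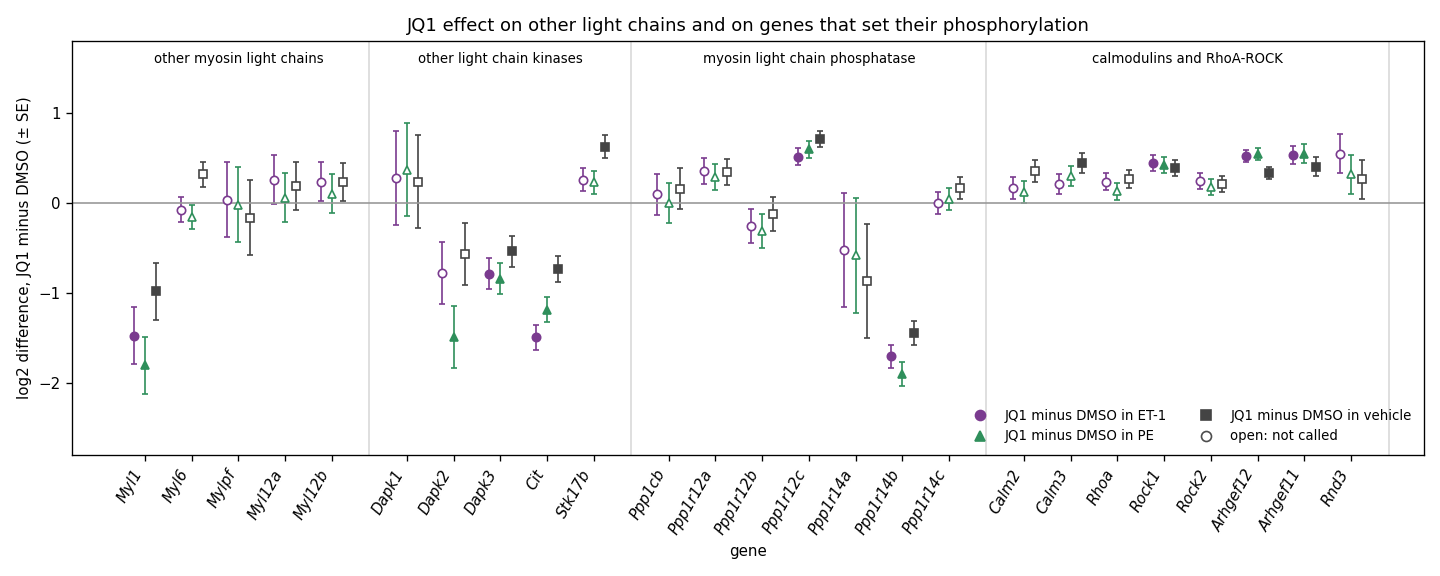
Log2 difference ± SE, JQ1 minus DMSO, of other light chains and of genes that set light chain phosphorylation, in ET-1 (circles), PE (triangles) and vehicle (squares), from the fit without block; filled symbols were called. Ppp1r14b lies lowest (-1.44 to -1.90) and Ppp1r12c at 0.51 to 0.71.

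Among genes that mark or build the same structures, JQ1 lowered Mybphl (log2 difference -2.999 in ET-1, -2.74 in PE and -2.79 in vehicle), a relative of myosin binding protein C, and Myom2, a protein of the M band (-3.77, -4.05 and -3.34). Of 6 thick filament partners tested, 3, 3 and 2 fell and none rose, against 37.5%, 36.5% and 32% of all genes called in either direction. The block called 56.9%, 56.4% and 52.8% of all genes, and these shares apply to the marker and factor lists below as well. With the block 4 fell in each treatment and Mybpc3, the cardiac myosin binding protein C, rose in all 3 (0.72, 0.56 and 0.60; adjusted p = 0.00040, 0.0014 and 0.0013). Of 8 smooth muscle markers, 3, 3 and 2 fell without the block and 6 in each treatment with it, among them Cnn1 (calponin, which binds actin; -1.56, -1.71 and -1.58). Among ventricular markers Hey2, a repressor of atrial genes in mouse ventricle, rose by 0.82, 0.84 and 0.93, while Cited1 fell in ET-1 (by 1.26) and PE (by 1.18). None of 7 atrial markers tested was called without the block. With it 4 fell in ET-1, 2 in PE and 3 in vehicle, and 1 rose in vehicle. Bmp10, a secreted factor of the atria, fell in all 3 (by 1.34, 1.65 and 0.84), as did Sln, which inhibits the calcium pump (by 0.46, 0.61 and 0.25). Nppa, which encodes atrial natriuretic peptide, rose in vehicle (0.43, adjusted p = 0.030). Of 13 transcription factors tested, 2 rose and 2 fell in each treatment, and with the block 2, 3 and 2 rose and 4, 3 and 3 fell. Hand2 rose in all 3 (0.73, 0.86 and 0.76), and Srf, which binds CArG boxes, rose in vehicle (0.67 ± 0.17, adjusted p = 0.021). Srf was not called in either fit in ET-1 (0.24) or PE (0.01). Mef2c fell in all 3 (by 0.60, 0.60 and 0.57) and Hopx in ET-1 and PE (by 1.06 and 0.97).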

How the data were processed

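Total RNA of neonatal rat cardiomyocytes was sequenced in 6 groups of 2 libraries, stranded and depleted of ribosomal RNA per the labels' protocols. The submitters' processing notes name StringTie 1.3.4d, STAR 2.7.1a, Trim Galore 0.6.0 and build rn6 (Rnor_6.0). Per the file headers, the authors deposited a coverage (signal, mean per base) and an FPKM for each of 41078 transcripts of 32883 genes. How strand was set in counting is not known from the labels or headers. No annotated gene overlapped a member.

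For each library, FPKM was summed by gene identifier and divided by a median-of-ratios factor from 15551 genes. A gene was tested if 2 or more libraries reached 1 rescaled FPKM (13793 genes, all 7 members included). The test was limma 3.58.1 (R 4.3.3, variance moderation trended and robust) on log2 of FPKM plus 0.5, a scale that understates changes of low genes such as Mylk. It fitted 6 group means to the 12 libraries. A call was a two-sided Benjamini-Hochberg adjusted p under 0.05 over all genes tested. The fit was tested on simulated data, with a replicate shift added only where the block was fitted. The main fit was therefore not tested under such a shift. Tables and figures used Python 3.11.15.

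What a replicate number marks is not in the labels. The data led to treating the numbers as pairs, since same-numbered libraries deviated together in all 15 pairs of groups, and the block is given beside the member calls and list counts it changes. Other alternatives were values as deposited, pseudocounts 0.1 and 1, no filter, factors from genes of at least 400 nt, the compared libraries alone, and each library left out, without and with the block. Of all pairs of libraries the lowest chi-square per gene was 19.9, so none were near copies.

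The members and lists were chosen with earlier results of these data known. All members were named in every comparison. At most the 3 largest called changes per list and comparison were named, and genes of the lists named for a call with the block alone were chosen after their values were seen. Promoters came from RefSeq (GRCr8). Ttn, Pecam1 and Prkg1 were not analysed here, and some genes that these rules would name are not reported here.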

Additional observations from a re-analysis of the deposited data

How the results depend on the processing

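The 45 member differences given in the report kept their direction and their side of the threshold with values as deposited, with pseudocounts of 0.1 and 1, with no filter and with factors from genes of at least 400 nt. With only the compared libraries fitted, 43 did: in vehicle, Myl3 with JQ1 lost its call (adjusted p = 0.11) and Mylk3 gained 1 (adjusted p = 0.030), so that the count of 1 hid a change of gene. The replicate block made 18 further calls and lost none: it called 1 member with ET-1 and 1 with PE, 5, 6 and 6 with JQ1 in vehicle, ET-1 and PE, and 2 with ET-1 under JQ1. That pairing comes from the data, not from the labels.

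With 1 library left out and no block, where a group of 1 is taken to vary like the others, the count of members called with JQ1 was 0 to 1 in vehicle, 0 to 2 in ET-1 and 0 in PE. With the block and 1 library left out it was 2 to 5 in vehicle, and with ET-1 under JQ1 it was 0 to 1. Leaving out a library unbalances the replicate numbers, and without the block several uncalled differences changed sign. With ET-1 these were Myl3 (log2 -0.14 to 0.35), Myl7 (-0.98 to 0.21), Myl9 (-0.11 to 0.70) and Mylk (-0.95 to 0.20), and with PE Myl7 (-0.99 to 0.29) and Mylk (-0.90 to 0.25). Myl4 did so for PE against ET-1 (-0.79 to 0.18). With JQ1 in vehicle they were Myl2 (-1.01 to 0.49), Myl4 (-0.65 to 0.31) and Myl7 (-1.14 to 0.13), in ET-1 Myl2 (-0.54 to 0.19), and in PE Myl2 (-0.51 to 0.24), Myl4 (-1.21 to 0.013) and Myl7 (-1.25 to 0.038). Under JQ1 they were Myl4 (-0.074 to 1.03) and Myl7 (-1.16 to 0.11) with ET-1, and Myl4 (-0.27 to 0.95) and Myl7 (-1.09 to 0.18) with PE. The JQ1 effect with agonist minus that without ran for Myl3 from -0.51 to 0.32 (ET-1) and from -0.38 to 0.45 (PE), and for Myl4 from -1.04 to 0.18 (PE). With 2 libraries a group, an uncalled difference was not detectable at this number of libraries and is not shown to be absent.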
